A study of Mus musculus with 12 samples.

Results

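The clustered histone genes were taken as all genes in the deposited tables whose symbol begins with Hist1h, Hist2h, Hist3h or Hist4h, the names used for the histone genes that lie together in the mouse genome. This rule found 70 genes of the 54446 gene identifiers in each table. By the histone type in the symbol, 6 encode linker histone H1, 20 encode H2A, 19 encode H2B, 12 encode H3 and 13 encode H4. Of the 70, 67 are annotated as protein-coding and 3 as pseudogenes (Hist1h2aj, Hist1h2al and Hist3h2bb-ps). All 70 reached a mean of at least 1 TPM (the share of all transcripts in a library after correction for transcript length, on a fixed total), the minimum for testing.

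Histones package DNA into nucleosomes, in which H2A, H2B, H3 and H4 form a core and H1 binds the linker DNA outside it. The clustered genes are known as the replication-dependent set: they are transcribed mainly in S phase, when new DNA needs histones, and their mRNAs usually end in a conserved stem-loop instead of a poly(A) tail. The stem-loop is bound by SLBP, which takes part in processing, translation and decay of these mRNAs. Replication-independent histone genes, such as H3f3b, lie elsewhere in the genome and give polyadenylated mRNAs outside S phase as well.

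RNA had been sequenced from mouse embryonic stem (ES) cells of 2 lines. KH was the line with intact DNA methyltransferase genes, and DNMT3ABKO lacked Dnmt3a and Dnmt3b, the enzymes that set new DNA methylation. Each line was sampled untreated (0 h) and after 72 h and 144 h with Ink128, an inhibitor of the growth-controlling kinase mTOR, with 2 libraries in each of the 6 groups. Each genotype was represented by 1 line, and no untreated culture of 72 h or 144 h was analysed here, so the inhibitor and time in culture cannot be told apart. Both lines carry the name E14 in the labels, but the methods of the study describe the wild-type line as KH2, grown like the knockout line on feeders (fibroblasts that no longer divide) and sorted before RNA extraction. The libraries were made from total RNA after removal of ribosomal RNA, a protocol that does not select for poly(A) tails.

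The sequence that sets these mRNAs apart is shown because it is shared across types and because many of the annotated gene models lack it. An exact hairpin of a 6-base stem, a 4-base loop and the complementary stem followed the coding sequence in 44 of the 70 genes (reference transcripts of GENCODE M21). The most frequent form was found in 26 genes of types H1, H2A, H2B and H3. The next, with another pair of stem bases, was found in 7 genes, all of type H4, and the form with a changed loop in 6 genes of types H1, H2B and H3. Stem bases are in capitals and loop bases in lower case:
Form in 26 genes, among them Hist1h1c, Hist1h1e and Hist1h3b: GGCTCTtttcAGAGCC
Form in 7 H4 genes, among them Hist1h4h and Hist4h4: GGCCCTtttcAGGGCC
Form in 6 genes, among them Hist1h1t, Hist1h2bk and Hist1h3e: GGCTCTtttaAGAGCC

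In 22 of the 44 genes the hairpin ended in the last 100 bases of the longest model, and in the other 22 more than 100 bases followed it, for example 1153 bases in Hist1h1e. Of the protein-coding genes, 23 had no such hairpin in their model, and 13 of these models stopped at the stop codon or within 3 bases of it, Hist1h3h and Hist1h4k among them. A level per length is therefore computed over models of unequal completeness. Across the 67 protein-coding genes, the mean TPM was lower for longer models (Spearman's rho -0.46, a description across genes).

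Members also share sequence with each other and with other gene models. Of all 100-base words in the transcripts of a gene, at least 50% occurred in no other gene for 41 members, under 20% for 16 members, and none at all for 5 members. Words were searched in all genes and on both strands. All words of those 5 members occur in models annotated over the same position (Gm20628, Gm20632, Gm20633 and Gm20634). The shares thus cover such models as well as other copies. The whole coding sequence of 8 members was identical to that of another, Hist1h2bq with Hist1h2br and Hist2h2aa1 with Hist2h2aa2 among them. Reads from such copies can be divided between them by the quantification, so sums per histone type are given first and single copies after them.

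As a check of the labels, Dnmt3b stood at 142 to 258 TPM in the 6 KH libraries and at 12.7 to 27.5 TPM in the 6 DNMT3ABKO libraries, and Dnmt3a at 54.7 to 144 and at 7.35 to 21.9 TPM. The DNMT3ABKO libraries at 0 h differed from each other more than those of any other group (SD between libraries over all tested genes 0.27 on the log2 scale, against 0.13 to 0.18), and replicate 1 had 59.2% of its TPM in protein-coding genes outside the histone clusters, against 66.5% in replicate 2. The summed TPM of 20 fibroblast markers fell from between 2587 and 2974 at 0 h to between 138 and 162 at 144 h in both lines together, that of 12 macrophage markers from between 273 and 348 to between 38.5 and 56.9, and that of 12 ES cell markers rose from between 4790.4 and 5151 to between 7339 and 7524. None of these lists had a marker at 0 in all libraries. The fall of the fibroblast markers thus moved with the time contrasts below, and its part in them was not tested. In bulk RNA, fewer cells of a type and less RNA per cell cannot be told apart, and because TPM is a share of each library and no spike-in row was used here, all levels below are relative.

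The clustered histone genes made up 1.91% to 3.38% of the TPM of a library. Their sum in the KH libraries was 23609.6 and 25519 TPM at 0 h, 25834 and 23849.5 TPM at 72 h, and 32796 and 33821 TPM at 144 h. In the DNMT3ABKO libraries it was 20236 and 22807 TPM at 0 h, 19103 and 20349 TPM at 72 h, and 29690.4 and 28272 TPM at 144 h. The sums at 144 h thus lay above all earlier sums of the same line, with no overlap. H4 was the type with the highest sum in 11 of the 12 libraries, and H1, the type with a single copy per nucleosome, the lowest in all 12.

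The types held similar shares of this sum in all libraries. H4 genes held 27.1% to 32.3% of it over the 12 libraries, H2B genes 23.3% to 29.8%, H2A genes 17.2% to 22.7%, H3 genes 14.6% to 17.8% and H1 genes 6.30% to 9.38%. Within a type, levels differed widely. The highest mean over the 12 libraries was 1151 TPM for Hist1h4k, followed by Hist1h4h with 1051 TPM and Hist1h4a with 974 TPM, and the lowest was 1.63 TPM for Hist2h2be. The highest H1 genes were Hist1h1a (849 TPM), Hist1h1b (579 TPM) and Hist1h1c (243 TPM), which encode the subtypes H1.1, H1.5 and H1.2. Among H2A genes Hist2h2aa2, Hist1h2ak and Hist1h2ab led with 641, 506 and 492 TPM, among H2B genes Hist1h2bk, Hist1h2bg and Hist1h2bj with 846, 699 and 612 TPM, and among H3 genes Hist1h3h, Hist1h3i and Hist1h3b with 579, 459.8 and 444 TPM.

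**Figure D1:**
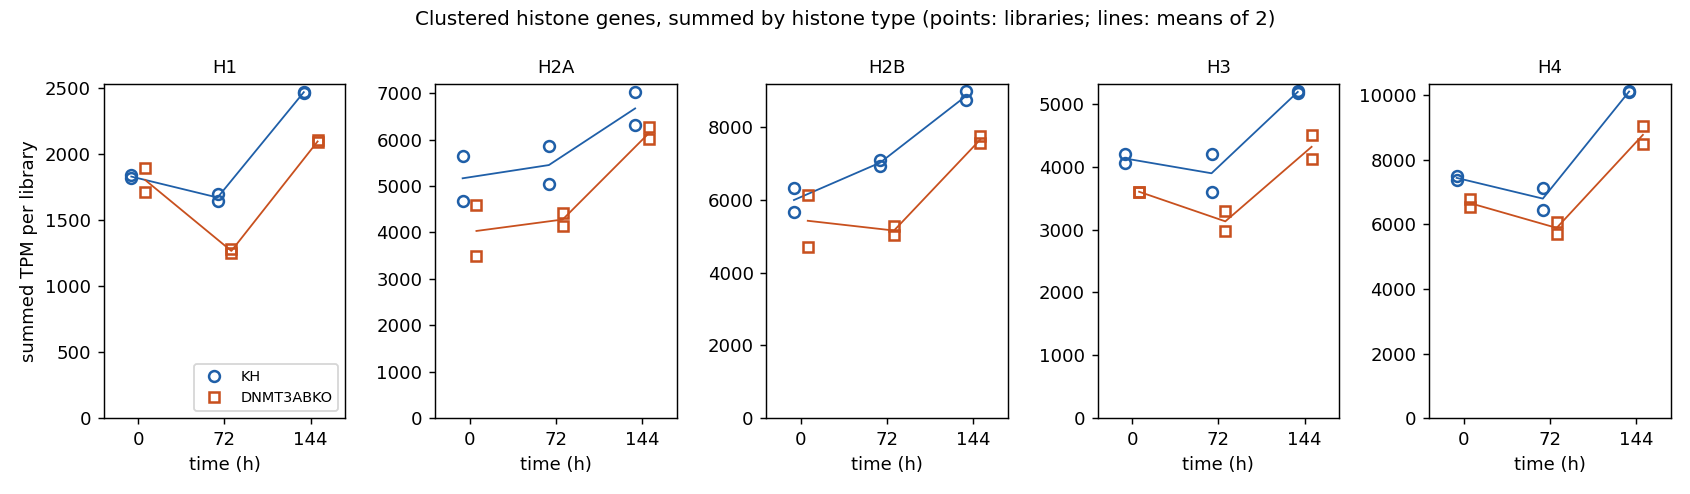
Summed TPM of the clustered histone genes of each type (vertical axis, from 0) at 0, 72 and 144 h (horizontal axis) in KH (circles) and DNMT3ABKO (squares), 1 point per library, with lines through the means of 2 libraries. In every type, both libraries of a line at 144 h lie above both at 0 h, and the H1 sum of DNMT3ABKO at 72 h, 1252 and 1282 TPM, is the lowest of its panel.

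In KH cells, the sums of all 5 types were higher at 144 h than at 0 h, by 1.26-fold to 1.48-fold, and none passed the threshold at 72 h, where 51.3% and 48.0% of all features were called in either direction. The H2B sum was 5673 and 6316 TPM at 0 h, 6942 and 7102 TPM at 72 h and 8744 and 8979 TPM at 144 h, a log2 change of 0.57 (SE 0.11) from 0 to 144 h with a limma adjusted p of 0.00194. Part of this rise was that of Hist1h2bq and Hist1h2br, which share a coding sequence. Together they stood at 595 and 585 TPM at 0 h and at 1476 and 1544 TPM at 144 h. The size of the H2B change thus also depends on how reads were assigned to them (described below). The H4 sum was 7379 and 7508, then 7146 and 6457, then 10096 and 10141 TPM, a log2 change of 0.44 (SE 0.08, adjusted p = 0.000814). For H1 the sums were 1820.5 and 1841, then 1696 and 1648, then 2474 and 2466 TPM, a log2 change of 0.43 (SE 0.06, adjusted p = 0.000319). In each of these types the libraries at 144 h stood apart from both earlier groups.

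The H3 sum in KH cells was 4051 and 4209.7, then 4194 and 3597, then 5169.9 and 5209 TPM, a log2 change of 0.33 (SE 0.09, adjusted p = 0.0104). The H2A sum was 4686 and 5645, then 5856 and 5045, then 6313 and 7026 TPM, a log2 change of 0.37 (SE 0.14, adjusted p = 0.0447). For H2A and H3 the libraries at 72 h overlapped those at 0 h. The H2A call was lost without any of 9 of the 12 libraries, the exceptions being KH at 0 h replicate 2 and both DNMT3ABKO libraries at 0 h, with adjusted p up to 0.258, and the H3 call was lost without KH at 0 h replicate 1 (log2 change 0.30) or KH at 144 h replicate 2 (0.32).

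Counted gene by gene, 49 of the 70 members were called higher in KH cells at 144 h than at 0 h and 0 were called lower, where 27.4% and 23.9% of all 15727 tested genes were. The median log2 change of the members was 0.41, against 0.05 over all tested genes. The members called higher were 5 of 6 H1, 11 of 20 H2A, 13 of 19 H2B, 7 of 12 H3 and 13 of 13 H4 genes. Without KH at 0 h replicate 1, 29 members were called higher.

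The H4 genes as a group moved together: Hist1h4k stood at 1147 and 1090.4 TPM at 0 h and at 1612 and 1616 TPM at 144 h in KH cells. Hist1h4h stood at 970.3 and 896 TPM at 0 h and at 1400.1 and 1412 TPM at 144 h. Hist1h4a stood at 871 and 961 TPM at 0 h and at 1205 and 1229.8 TPM at 144 h. In each of these genes the groups did not overlap, with log2 changes of 0.53, 0.59 and 0.41 and adjusted p of 0.00071, 0.000265 and 0.00797. The call of Hist1h4a was lost without KH at 0 h replicate 1 (log2 change 0.34, adjusted p = 0.0588).

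In KH cells more members were called between 72 and 144 h than between 0 and 72 h. From 72 to 144 h the H1, H3 and H4 sums were called higher (log2 change 0.56, 0.42 and 0.57), where 22.7% of all features were called, and 39 members were called higher and 1 lower, where 7.24% and 15.6% of all tested genes were, and the median log2 change was 0.39, against -0.04 over all tested genes. From 0 to 72 h, 6 members were called higher and 12 lower, where 28.3% and 19.5% of all tested genes were, with a median of -0.01. Scaling each library by the median ratio gave 5 higher and 19 lower for that interval, and without KH at 72 h replicate 2 the numbers were 3 and 8. The 3 time contrasts of a line share libraries and are not independent of each other.

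In DNMT3ABKO cells, all 5 types were likewise higher at 144 h than at 0 h, by 1.16-fold to 1.54-fold, and the H1 sum had first fallen at 72 h, where 57.6% and 56.0% of all features were called in either direction. The H1 sum was 1899 and 1711 TPM at 0 h, 1252 and 1282 TPM at 72 h and 2104 and 2089 TPM at 144 h. Its log2 change was -0.51 from 0 to 72 h (SE 0.06, adjusted p = 0.0001) and 0.22 from 0 to 144 h (SE 0.06, adjusted p = 0.0141). The libraries of the 3 times did not overlap, and the later call was lost without either DNMT3ABKO library at 144 h (log2 change 0.21 without replicate 1 and 0.22 without replicate 2).

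The H2A sum in DNMT3ABKO cells was 3484 and 4580.1, then 4136 and 4421, then 6263 and 6012 TPM (log2 change from 0 to 144 h 0.62, SE 0.14, adjusted p = 0.00329). Part of this rise was that of 1 member, Hist2h2aa1, listed at 0 and 71.5 TPM at 0 h and at 521 and 630 TPM at 144 h. Its low levels at 0 h went with high levels of overlapping gene models (described below), so the size of the H2A change depends on how reads were assigned. The H2B sum was 4717 and 6132, then 5034 and 5278, then 7758 and 7552 TPM (0.51, SE 0.11, adjusted p = 0.00297), with a change of 0.32 without DNMT3ABKO at 0 h replicate 1. For both types the libraries at 72 h fell within the spread of those at 0 h, and only the libraries at 144 h lay apart. The H3 sum was 3601 and 3603, then 2972 and 3290.2, then 4510.0 and 4123 TPM (0.26, SE 0.09, adjusted p = 0.0281), and the H4 sum 6536 and 6781, then 5709.6 and 6078, then 9055 and 8496 TPM (0.40, SE 0.08, adjusted p = 0.00127). For these 2 types the libraries at 72 h were the lowest of the line, with log2 changes of -0.20 and -0.18 from 0 h that did not pass the threshold (adjusted p = 0.0726 and 0.0713), and the H3 call at 144 h was lost without DNMT3ABKO at 144 h replicate 1 (log2 change 0.19).

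Gene by gene, 53 members were called higher and 1 lower in DNMT3ABKO cells at 144 h than at 0 h, where 31.4% and 26.2% of all tested genes were (median log2 change 0.44, against 0.05 over all). From 72 to 144 h, 58 were called higher and 1 lower, where 8.81% and 18.5% of all tested genes were (median 0.57, against -0.06 over all), and all 5 sums were, where 27.0% of all features were called. Without DNMT3ABKO at 72 h replicate 1 or at 144 h replicate 1, 33 and 37 were called higher. From 0 to 72 h, 4 members were called higher and 26 lower, where 34.3% and 21.6% of all tested genes were, and the median was -0.12, against 0.12 over all. The 26 lower members included 5 of 6 H1, 8 of 13 H4, 6 of 19 H2B, 4 of 12 H3 and 3 of 20 H2A genes.

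**Figure D2:**
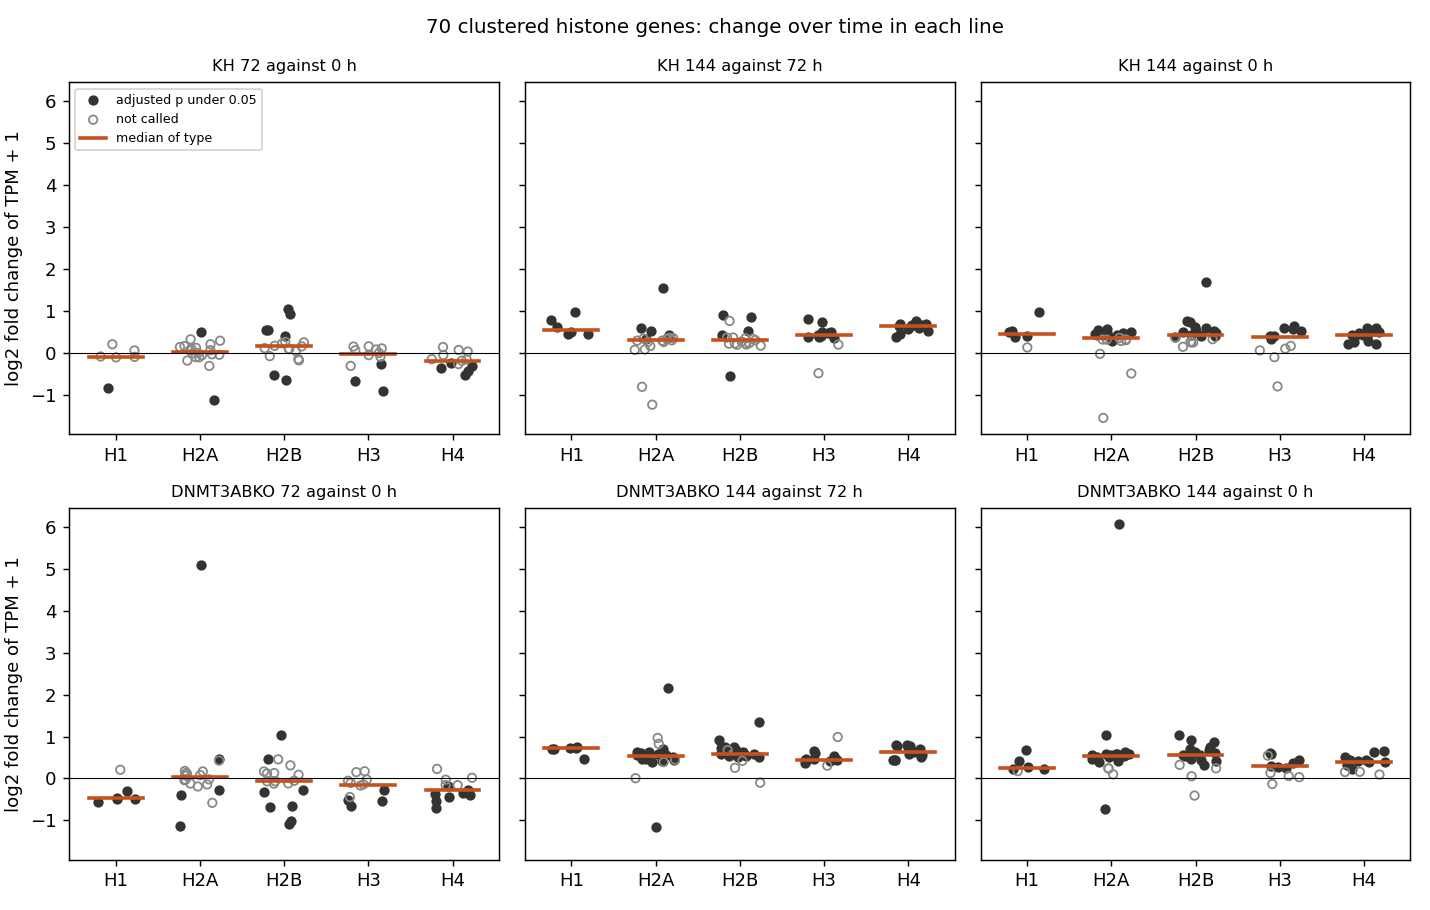
Log2 fold change of TPM + 1 for each of the 70 genes (points, vertical axis) by histone type (horizontal axis) over the 3 time contrasts in KH (upper row) and DNMT3ABKO (lower row), with filled points called at an adjusted p under 0.05 and bars at the median of a type. From 72 to 144 h nearly all points lie above 0 in both lines, and the highest points in the lower row, 5.11 and 6.07, are Hist2h2aa1, listed at 0 TPM in 1 library.

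Between the lines, the H1, H2B and H3 sums were called lower in DNMT3ABKO cells at 72 h and the H1 and H3 sums at 144 h. No sum was called at 0 h. Yet both DNMT3ABKO libraries at 0 h already lay below both KH libraries for H2A, H3 and H4 (log2 difference -0.36, -0.20 and -0.16). For H1 and H2B they overlapped. The H2A sums at 0 h include Hist2h2aa1, listed at 271 and 405 TPM in KH and at 0 and 71.5 TPM in DNMT3ABKO cells. Without this gene the H2A sums of the lines overlapped at 0 h, so that separation depends on how reads were assigned (described below). The difference in the 72 h response was not called for H2A, H2B, H3 or H4 (limma adjusted p = 0.974, 0.379, 0.692 and 0.878). At 72 h the H1 sum was 1252 and 1282 TPM in DNMT3ABKO and 1696 and 1648 TPM in KH cells, a log2 difference of -0.40 (SE 0.06, adjusted p = 0.00186). The H2B sum was 5034 and 5278 TPM against 6942 and 7102 TPM (-0.45, SE 0.11, adjusted p = 0.02), and the H3 sum 2972 and 3290.2 TPM against 4194 and 3597 TPM (-0.31, SE 0.09, adjusted p = 0.0332). Within these H2B sums, Hist1h2bq and Hist1h2br together stood at 457 and 473 TPM against 821 and 1253 TPM. In all 5 types both DNMT3ABKO libraries lay below both KH libraries, and H2A and H4 did not pass the threshold (adjusted p = 0.112 and 0.0893), where 19.2% of all features were called. The H1 call held without any 1 library. The H2B call was lost without KH at 72 h replicate 1 or 2 (log2 difference -0.46 and -0.43) or DNMT3ABKO at 72 h replicate 1 or 2 (-0.41 and -0.48). The H3 call was lost without KH at 72 h replicate 1 (-0.20), either DNMT3ABKO library at 72 h (-0.24 and -0.39) or either KH library at 144 h (-0.31 for each).

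At 72 h, 25 members were called lower and 2 higher in DNMT3ABKO cells, where 10% and 9.26% of all tested genes were, and the median log2 difference was -0.30, against -0.04 over all. The lower members were 4 of 6 H1, 5 of 20 H2A, 5 of 19 H2B, 6 of 12 H3 and 5 of 13 H4 genes. The higher members were Hist1h1t and Hist1h1e. Without KH at 72 h replicate 1 or DNMT3ABKO at 72 h replicate 1, 6 members were called lower, and without DNMT3ABKO at 72 h replicate 2, 15 were.

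At 144 h the H1 sum (2104 and 2089 TPM against 2474 and 2466 TPM) and the H3 sum (4510.0 and 4123 TPM against 5169.9 and 5209 TPM) were lower in DNMT3ABKO cells, with log2 differences of -0.24 (SE 0.06, adjusted p = 0.0212) and -0.27 (SE 0.09, adjusted p = 0.0485). The libraries of the lines did not overlap, yet both calls were at the edge of the threshold. The H1 call was lost without any 1 of the 4 libraries at 144 h (log2 difference -0.24 to -0.23), and the H3 call without any of 8 libraries, the exceptions being KH at 72 h and DNMT3ABKO at 0 h (-0.33 to -0.20). By single genes, 18 members were called lower and 1 higher at 144 h, where 15.5% and 11% of all tested genes were, with a median of -0.17 against -0.04 over all, and 26.5% of all features in the fit with the sums were called. Scaling by the median ratio gave 11 lower and 2 higher, and without KH at 144 h replicate 1 or 2 or DNMT3ABKO at 144 h replicate 2 there were 3, 5 and 4 lower.

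At 0 h no type passed the threshold between the lines, where 9.12% of all features were called, and 1 member was called higher (Hist1h1t) and 0 lower, where 4.92% and 4.14% of all tested genes were. The median log2 difference of the members was -0.18, and 63 of the 70 lay below 0. This count depended on 1 library: without DNMT3ABKO at 0 h replicate 2, 37 members were called lower and 2 higher, and the H2A and H2B sums were called lower (log2 difference -0.56 and -0.34), while without replicate 1, 1 member was called lower and 1 higher, and without KH at 0 h replicate 2, 2 higher. Under both scaling alternatives 1 member was lower and 1 higher. The shares of all tested genes called in these other fits are not given here.

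**Figure D3:**
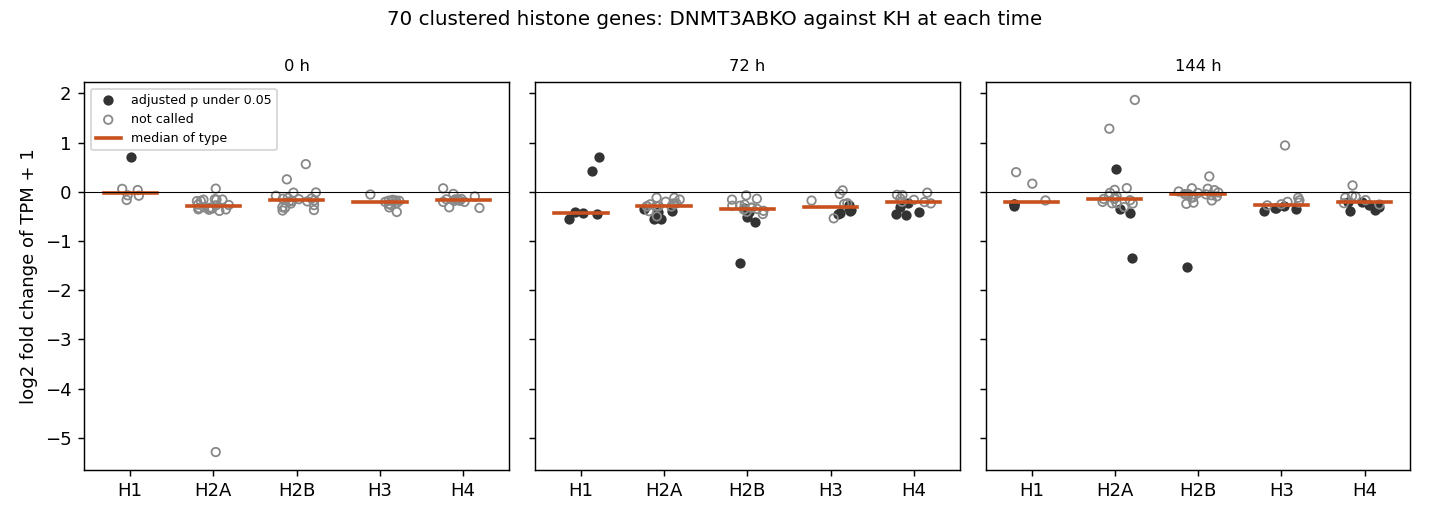
Log2 difference of TPM + 1 between DNMT3ABKO and KH (vertical axis) for each of the 70 genes by histone type (horizontal axis) at 0, 72 and 144 h, with filled points called at an adjusted p under 0.05 and bars at the median of a type. At 72 h 67 of 70 points lie below 0, and the lowest filled points at 72 and 144 h, -1.45 and -1.53, are Hist1h2br.

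The change from 0 h differed between the lines for few members. At 72 h, 3 members had a lower response in DNMT3ABKO cells and 0 a higher one, where 1.86% and 3.38% of all tested genes did. These were the H1 genes Hist1h1b and Hist1h1c and the H2B gene Hist1h2br. Hist1h1b stood at 574 and 584 TPM in KH cells at 0 h and 542 and 539 TPM at 72 h, and at 547 and 555 TPM in DNMT3ABKO cells at 0 h and 388 and 398 TPM at 72 h. The log2 change was -0.10 in KH and -0.49 in DNMT3ABKO cells, a difference of -0.39 (SE 0.07, adjusted p = 0.0139). Hist1h1c stood at 246 and 252, then 236 and 232 TPM in KH cells, and at 227 and 217, then 158 and 162 TPM in DNMT3ABKO cells, a difference of -0.38 (SE 0.08, adjusted p = 0.0184). In both genes the change was called in DNMT3ABKO cells and did not pass the threshold in KH cells (adjusted p = 0.136 and 0.194). The difference for Hist1h1b was lost without any 1 of the 4 libraries at 72 h (-0.40 to -0.37), and that for Hist1h1c without any of these or KH at 0 h replicate 1 (-0.40 to -0.36).

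The H1 sum differed in its 72 h response by -0.38 (SE 0.09, adjusted p = 0.0413), where 5.27% of all features were called, a call that was lost without any of 10 of the 12 libraries (adjusted p up to 0.167), the exceptions being the DNMT3ABKO libraries at 0 h. Hist1h1a, which takes the largest share of the H1 sum (44.6% to 48.7%), stood at 819 and 820.4, then 774 and 744 TPM in KH cells, and at 926 and 763, then 566 and 574 TPM in DNMT3ABKO cells. Its difference in response, -0.45, did not pass the threshold (SE 0.12, adjusted p = 0.0572). Without 1 library the number of members with a called difference at 72 h ranged from 0 to 8, with 8 and 7 without DNMT3ABKO at 0 h replicate 1 and 2, 1 without either KH library at 72 h and 0 without either DNMT3ABKO library at 72 h.

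Hist1h1e, which encodes H1.4, was lowest at 72 h in both lines. It stood at 105 and 107 TPM at 0 h, 60.8 and 55.9 TPM at 72 h and 114 and 117 TPM at 144 h in KH cells, and at 117 and 104, then 74.9 and 82.6, then 133 and 127 TPM in DNMT3ABKO cells. It fell at 72 h in both lines, by 0.85 (adjusted p = 2.75e-05) and 0.48 (adjusted p = 0.00057) on the log2 scale, and in KH cells it was the only H1 gene called lower at that time. At 72 h it was higher in DNMT3ABKO cells (log2 difference 0.43, SE 0.08, adjusted p = 0.00447), a call lost without KH at 72 h replicate 2 (0.37) or DNMT3ABKO at 72 h replicate 2 (0.36), while Hist1h1a, Hist1h1b and Hist1h1c were lower there. Its share of the H1 sum in KH cells was 5.75% and 5.80% in the untreated libraries, 3.58% and 3.39% at 72 h and 4.62% and 4.73% at 144 h, against 5.98% to 6.44% in the 6 DNMT3ABKO libraries. Its annotated model runs 1153 bases past the stem-loop and overlaps those of Hist1h2be and Gm11398. Of its 100-base words, 21.7% occur in Hist1h2be. That gene stood at 65.4 and 73.3 TPM at 0 h and 83.7 and 81.0 TPM at 72 h in KH cells. In DNMT3ABKO cells it stood at 44.1 and 68.4, then 60.7 and 63.0 TPM. How reads were divided between the overlapping models was not tested.

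Of the histone genes known from germ cells, 3 were listed: Hist1h2aa and Hist1h2ba, which encode the testis H2A and H2B variants TH2A and TH2B, and Hist1h1t, which encodes the testis linker histone H1t. They were low, with means of 12.3, 21.5 and 11.1 TPM over the 12 libraries. Hist1h2aa and Hist1h2ba form a locus of their own (chr13:23933773-23934851, mm10) and are transcribed away from each other, with annotated starts 306 bases apart. Both models hold only the coding sequence and stop codon, so these are coding starts and not mapped transcription starts. The windows around their starts overlap, and the window of Hist1h2ba, placed on its coding start, is shown because both genes moved together. It spans chr13:23934107-23934406 on the minus strand (RefSeq, GRCm38.p6), from 250 bases before the start to 50 bases after it, with CCAAT (or ATTGG, its other strand), the octamer ATTTGCAT and TATAAA in capitals:
Hist1h2ba: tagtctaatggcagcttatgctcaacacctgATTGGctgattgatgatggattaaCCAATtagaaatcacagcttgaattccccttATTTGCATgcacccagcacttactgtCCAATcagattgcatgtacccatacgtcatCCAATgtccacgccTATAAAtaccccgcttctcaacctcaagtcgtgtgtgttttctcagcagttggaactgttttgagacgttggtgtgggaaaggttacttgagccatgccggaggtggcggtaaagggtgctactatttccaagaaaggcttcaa

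Both genes fell at 72 h and were higher again at 144 h in both lines. Hist1h2aa stood at 12.9 and 11.9 TPM at 0 h, 4.92 and 5.31 TPM at 72 h and 17.1 and 16.7 TPM at 144 h in KH cells, and at 10.5 and 11.6, then 4.04 and 4.96, then 23.9 and 23.2 TPM in DNMT3ABKO cells. No group overlapped another time of its line. Its log2 change from 0 to 72 h was -1.14 in KH (SE 0.10, adjusted p = 1.91e-05) and -1.13 in DNMT3ABKO cells (SE 0.10, adjusted p = 1.04e-05), and from 0 to 144 h 0.41 and 1.03 (adjusted p = 0.00609 and 1.27e-05). The response at 144 h was larger in DNMT3ABKO cells by 0.62 (SE 0.14, adjusted p = 0.0234), 1 of 2 members with such a difference, where 4.89% of all tested genes had a higher and 3.70% a lower response. That difference was lost without KH at 0 h replicate 1 or any 1 of the 4 libraries at 144 h (0.57 to 0.64). The number of members with such a difference was 16 (13 higher and 3 lower) without DNMT3ABKO at 0 h replicate 2, 1 without KH at 0 h replicate 1, KH at 144 h replicate 1 or either DNMT3ABKO library at 144 h, and 1 higher and 2 lower under both scaling alternatives. No type sum had a called difference at 144 h, where 8.67% of all features did.

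Hist1h2ba stood at 27.3 and 19.8 TPM at 0 h, 13.4 and 15.5 TPM at 72 h and 31.5 and 24.5 TPM at 144 h in KH cells, and at 26.1 and 20.2, then 10.1 and 11.5, then 30.7 and 27.5 TPM in DNMT3ABKO cells. It was lower at 72 h in both lines, and the libraries at 0 and 144 h overlapped in KH cells. The log2 changes at 72 h were -0.66 (SE 0.18, adjusted p = 0.0117) and -1.03 (SE 0.18, adjusted p = 0.000762), the first lost without KH at 0 h replicate 1 (-0.44) or KH at 72 h replicate 1 (-0.56). From 72 to 144 h it rose by 0.90 in KH and 1.35 in DNMT3ABKO cells (adjusted p = 0.0052 and 0.000342), the former call lost without KH at 144 h replicate 1 (0.73).

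Hist1h1t differed from this pair. It stood at 5.68 and 6.43, then 8.20 and 6.13, then 14.1 and 11.9 TPM in KH cells, and at 11.2 and 9.84, then 12.5 and 12.04, then 16.04 and 18.7 TPM in DNMT3ABKO cells. It was higher in DNMT3ABKO cells at each time, without overlap, with log2 differences of 0.71 at 0 h (SE 0.14, adjusted p = 0.012), 0.71 at 72 h (adjusted p = 0.00609) and 0.40 at 144 h, which did not pass the threshold (adjusted p = 0.0617). It was the only member called between the lines at 0 h, a call lost without KH at 0 h replicate 1 (0.63), and the call at 72 h was lost without KH at 72 h replicate 2 (0.53). From 0 to 144 h it rose by 0.98 in KH and 0.67 in DNMT3ABKO cells (adjusted p = 0.00026 and 0.00219).

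**Figure D4:**
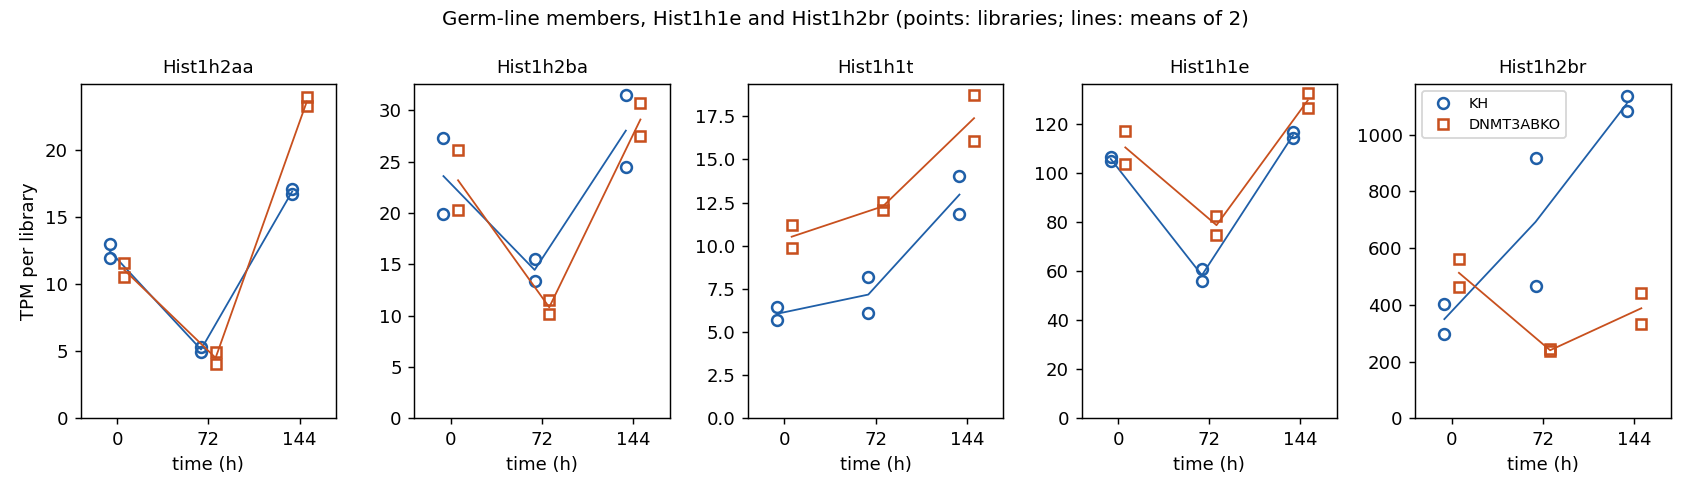
TPM per library (vertical axes, from 0) at 0, 72 and 144 h (horizontal axis) for Hist1h2aa, Hist1h2ba, Hist1h1t, Hist1h1e and Hist1h2br in KH (circles) and DNMT3ABKO (squares), with lines through the means of 2 libraries. Hist1h2aa and Hist1h2ba are lowest at 72 h in both lines, Hist1h1t is higher in DNMT3ABKO at each time, and Hist1h2br parts between the lines, to 1083 and 1135 TPM in KH and 333 and 443 TPM in DNMT3ABKO at 144 h.

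Among the members with a called difference between the lines, Hist1h2br, an H2B gene, had the largest at 72 and at 144 h (log2 difference -1.45 and -1.53). The former was -0.96 without KH at 72 h replicate 2. It stood at 402 and 297 TPM at 0 h, 467 and 917 TPM at 72 h and 1083 and 1135 TPM at 144 h in KH cells, and at 562 and 463, then 236 and 243, then 333 and 443 TPM in DNMT3ABKO cells. It rose in KH cells (log2 change 1.68 at 144 h, SE 0.27, adjusted p = 0.000557) and fell in DNMT3ABKO cells at 72 h (-1.09, SE 0.27, adjusted p = 0.00658). The responses differed by -2.01 at 72 h (SE 0.38, adjusted p = 0.0148) and by -2.09 at 144 h (SE 0.38, adjusted p = 0.00776). The difference at 144 h held without any 1 library, whereas that at 72 h was lost without KH at 0 h replicate 2 or without either DNMT3ABKO library at 72 h (adjusted p up to 0.0597).

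Hist1h2br shares its coding sequence with Hist1h2bq, and 86.4% of its 100-base words occur in that gene. Hist1h2bq stood at 193 and 289, then 353 and 336, then 393 and 409 TPM in KH cells, and at 198 and 166, then 220.5 and 229.6, then 322 and 427 TPM in DNMT3ABKO cells, and was called higher at 144 h in both lines (log2 change 0.76 and 1.03, adjusted p = 0.00512 and 0.000695), the former 0.47 without KH at 0 h replicate 1. The sum of both genes was 595 and 585 TPM at 0 h, 821 and 1253 TPM at 72 h and 1476 and 1544 TPM at 144 h in KH cells. In DNMT3ABKO cells it was 759.7 and 629, then 457 and 473, then 655 and 869 TPM. The lines did not overlap at any time in this sum, with DNMT3ABKO higher at 0 h and KH higher at 72 and 144 h. Each gene has 3 annotated transcripts, of 381 to 2197 bases for Hist1h2br, and TPM also depends on which of them reads are given to.

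Further members moved at 72 h in both lines. Hist2h3c2, an H3 gene, stood at 222 and 236, then 132 and 111, then 208 and 217 TPM in KH cells, and at 184 and 207, then 117 and 131, then 191 and 166 TPM in DNMT3ABKO cells. It fell by 0.91 and 0.66 on the log2 scale at 72 h (SE 0.11, adjusted p = 0.000104 and 0.00053). Hist2h2be, the lowest H2B gene, stood at 0.884 and 0.625, then 2.65 and 2.59, then 1.44 and 1.48 TPM in KH cells, and at 0.384 and 0.860, then 2.28 and 2.27, then 2.01 and 2.11 TPM in DNMT3ABKO cells. It rose at 72 h in both lines, by 1.05 and 1.03 (SE 0.14, adjusted p = 0.000265 and 0.000196), on a scale that understates changes at such low levels. Hist1h2af, an H2A gene, stood at 353 and 386, then 550.1 and 493 TPM in KH cells and at 266 and 327, then 389 and 423 TPM in DNMT3ABKO cells, a rise of 0.49 and 0.46 (adjusted p = 0.0027 and 0.00318).

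Hist2h2ab was the member called lower in DNMT3ABKO cells at 144 h than at 0 h. It stood at 13.2 and 21.9 TPM at 0 h, 19.95 and 27.0 TPM at 72 h and 9.78 and 10.04 TPM at 144 h, and in KH cells at 18.2 and 23.3, then 26.2 and 24.4, then 30.3 and 23.3 TPM. At 144 h it was lower in DNMT3ABKO than in KH cells by 1.34 on the log2 scale (log2 difference -1.34, SE 0.22, adjusted p = 0.0019), a call that held without any 1 library. The fall from 0 to 144 h (-0.72, SE 0.22, adjusted p = 0.0187) was lost without DNMT3ABKO at 0 h replicate 2 (-0.38) or without either DNMT3ABKO library at 144 h (-0.71 and -0.74). The model of Hist2h2ab overlaps that of Gm15444. Of the words of Hist2h2ab, 59.4% occur in Gm15444 and 40.3% occur in no other gene. The levels of Gm15444 are not given here. How reads were divided between these models, and its part in the difference between the lines, was not tested.

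Some members share their position with other gene models, and in single libraries the level was listed under the other model. Hist2h2aa1 was listed at 0 TPM in DNMT3ABKO at 0 h replicate 1 and at 71.5 TPM in replicate 2, and at 94.4 to 629.7 TPM in the other 10 libraries. In the library with 0, the overlapping models Gm20633 and Gm47313 stood at 91.2 and 145 TPM, against 1.47 to 3.67 and 1.22 to 2.48 TPM elsewhere. The called changes of Hist2h2aa1 in DNMT3ABKO cells, 5.11 at 72 h and 6.07 at 144 h on the log2 scale (adjusted p = 0.0168 and 0.0065), depend in size on that library: without it they were 2.02, no longer called, and 2.98, and without replicate 2 of that group 8.20 and 9.16. The change at 72 h was also lost without either DNMT3ABKO library at 72 h. Gm20634 overlaps Hist2h2aa1 as well. It had its highest levels, 155 and 191 TPM, in DNMT3ABKO at 0 h replicate 2 and KH at 144 h replicate 1. Hist2h2aa1 stood at 71.5 and 94.4 TPM in these libraries. The changes without the library at 0 TPM thus rest on a 0 h library in which an overlapping model was also high. The near-identical copy Hist2h2aa2 changed by 0.40 from 0 to 144 h in DNMT3ABKO cells (adjusted p = 0.00388).

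Hist3h2a was listed at 3.07 TPM in KH at 144 h replicate 1 and at 68.7 TPM in replicate 2, and the overlapping Trim17 at 35.6 TPM in the former and at 0 to 1.08 TPM in the other 11 libraries. Hist2h3c1 ranged from 20.7 to 104 TPM, and Gm20634, within which it lies, from 0 to 191 TPM. Gm20634 was at 0 TPM in the library with the highest Hist2h3c1 level. With Hist2h2be, these were the 4 members whose libraries differed by more than 2 times within a group. Without those 4 members every count of called members stayed within 1.5 times its value, a check chosen after seeing the data. The fit was the same and the 4 were only left out of the tally. A larger move was therefore not possible, and the check says nothing about how stable the counts are.

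**Figure D5:**
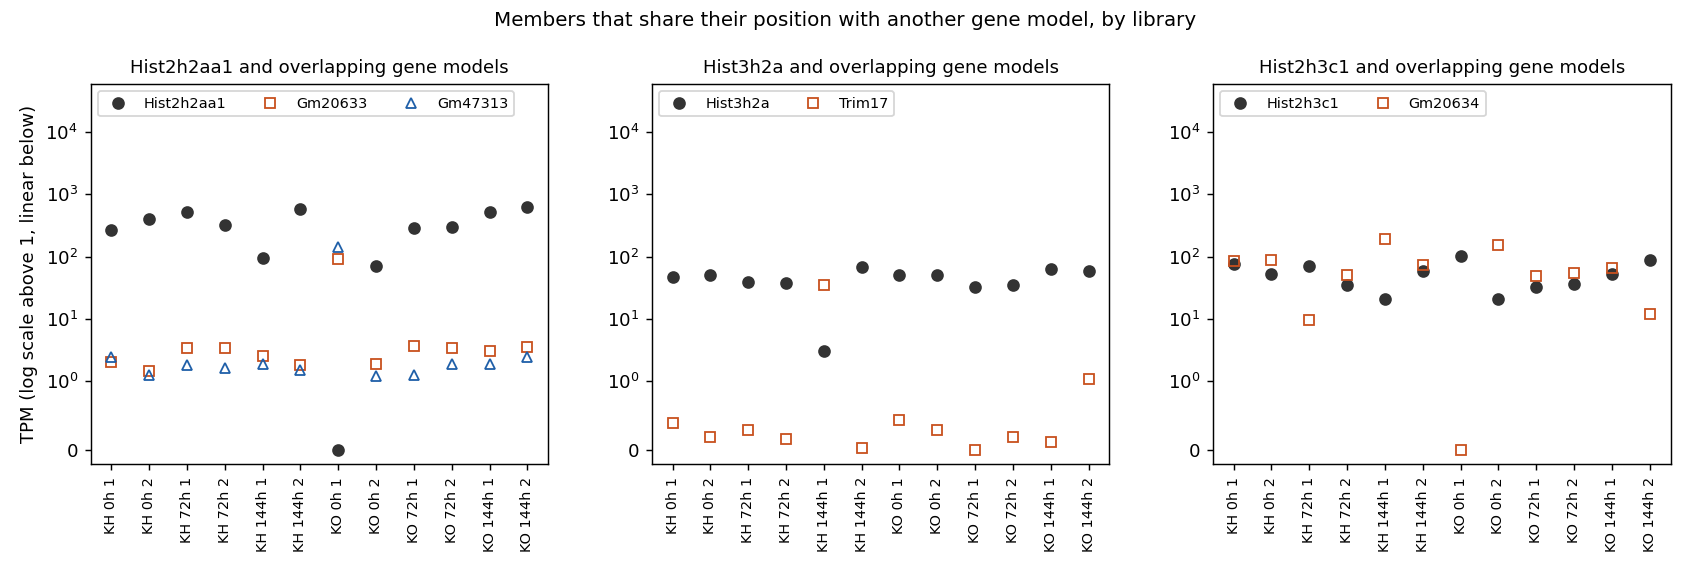
TPM in each of the 12 libraries (horizontal axis; KO is DNMT3ABKO, the last digit is the replicate) for Hist2h2aa1, Hist3h2a and Hist2h3c1 (filled points) and for the gene models that overlap them (open symbols), on a logarithmic vertical axis that is linear below 1 TPM. In DNMT3ABKO at 0 h replicate 1 Hist2h2aa1 is at 0 while Gm20633 and Gm47313 stand at 91.2 and 145 TPM. In KH at 144 h replicate 1 Hist3h2a is at 3.07 while Trim17 stands at 35.6 TPM. Gm20634, drawn with Hist2h3c1, also overlaps Hist2h2aa1.

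The members lie at 8 loci, taking gaps over 100000 bases as borders. The Hist1 group on chromosome 13 holds 56 of them, in stretches of 29, 19, 5, 2 and 1 genes (chr13:23531050-23764406, 21715763-21837530, 22035164-22043676, 23933773-23934851 and 51202727-51203065). The Hist2 group holds 10 genes (chr3:96219865-96270132), the Hist3 group 3 (chr11:58948920-58956830) and Hist4h4 stands alone on chromosome 6. The stretches of 29 and 19 genes had a median log2 change from 0 to 144 h of 0.48 and 0.41 in KH and 0.45 and 0.47 in DNMT3ABKO cells. The Hist2 group had a median of 0.23 and 0.25, with 4 of 10 genes called higher in each line. In the Hist1 group 44 and 49 of 56 were called higher. Of all tested genes, 27.4% were called higher in KH and 31.4% in DNMT3ABKO cells. The difference between the groups was not tested.

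The change at 144 h was also set beside how complete and how unique each model was. Medians of the log2 change from 0 to 144 h were 0.40 in KH and 0.51 in DNMT3ABKO cells for the 22 genes whose model ends near the stem-loop, 0.44 and 0.47 for the 22 with a longer model, and 0.41 and 0.37 for the 26 without a stem-loop in the model. They were 0.41 and 0.43 for the 41 genes with mostly unique words and 0.31 and 0.48 for the 16 with few. These values are descriptions, with no test.

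Promoter windows of RefSeq, 300 bases each, matched 62 of the 70 members. The octamer ATTTGCAT, searched on both strands, was found in 7 of 18 H2A (38.9%) and 7 of 16 H2B windows (43.8%), in no H1, H3 or H4 window, and in 1.74% of all 32851 windows. CCAAT was found in every H1, H2A, H2B and H3 window, in 3 of 12 H4 windows and in 37.4% of all, and TATAAA in 56.5% of the members and 13.6% of all. Among the members the octamer was thus found in H2A and H2B windows alone. An H2A and an H2B gene lay side by side and were transcribed away from each other in 14 pairs, with annotated starts 173 to 306 bases apart. The H2A and H2B genes with and without the octamer had medians of 0.39 and 0.40 from 0 to 144 h in KH cells and 0.55 each in DNMT3ABKO cells.

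The replication-independent histone genes were compared as a list. Of 17 listed, 11 reached the minimum for testing, and their sum was 2335 and 2255 TPM at 0 h, 2407 and 2445 TPM at 72 h and 2512 and 2437 TPM at 144 h in KH cells, and 2174 and 2235, then 2639.9 and 2596, then 2790.5 and 2809.8 TPM in DNMT3ABKO cells. From 0 to 144 h, 8 were called higher and 2 lower in KH cells (72.7% and 18.2%, where 27.4% and 23.9% of all tested genes were). In DNMT3ABKO cells 7 were called higher and 1 lower (63.6% and 9.09%, where 31.4% and 26.2% were). H3f3b, which encodes histone H3.3, stood at 378 and 375, then 481 and 529.7, then 442 and 441 TPM in KH cells, and at 374 and 384, then 652 and 636, then 612 and 628 TPM in DNMT3ABKO cells. Its rise at 144 h was 0.23 in KH (adjusted p = 0.00986) and 0.71 in DNMT3ABKO cells (adjusted p = 5.58e-06), a difference of 0.48 (adjusted p = 0.00719), whereas the difference in response of the clustered H3 sum did not pass the threshold (-0.07, adjusted p = 0.785). The call of H3f3b in KH cells was lost without either KH library at 144 h (adjusted p up to 0.0551).

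H3f3a, the other H3.3 gene, rose by 0.46 and 0.72 from 0 to 144 h, and H1f0, a linker histone of resting cells, by 0.53 and 0.52. The call of H3f3a in KH cells was lost without KH at 0 h replicate 2 (log2 change 0.25) or KH at 144 h replicate 1, with adjusted p up to 0.256. H2afx rose by 0.32 and 0.43, and H2afz fell by 0.31 in KH cells and had a change of -0.0029 that was not called in DNMT3ABKO cells. H1fx was listed at 0 TPM in 5 of the 12 libraries, among them both of DNMT3ABKO at 144 h, and at 18.7 to 40.9 TPM in the other 7, and no change is given for it.

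Of 13 tested genes for transcription and processing of histone mRNA, 3 were called higher and 1 lower in KH cells from 0 to 144 h (23.1% and 7.69%, where 27.4% and 23.9% of all tested genes were). In DNMT3ABKO cells 4 were called higher and 1 lower (30.8% and 7.69%, where 31.4% and 26.2% were). Npat, the coactivator of these genes, stood at 20.9 and 23.7 TPM at 0 h and 33.8 and 32.9 TPM at 144 h in KH cells and at 15.4 and 21.9, then 30.8 and 34.2 TPM in DNMT3ABKO cells, a rise of 0.56 and 0.79. Slbp stood between 107 and 145 TPM in all libraries, with changes from 0 to 144 h of 0.08 and 0.06 that were not called. Of 18 histone chaperone genes, 7 were called higher and 4 lower in KH cells (38.9% and 22.2%, against the same 27.4% and 23.9%). In DNMT3ABKO cells 8 were called higher and 4 lower (44.4% and 22.2%, against 31.4% and 26.2%). The H3-H4 chaperone genes Asf1b and Chaf1a had changes of 0.11 and 0.09 that were not called in KH cells, and of 0.48 (called) and -0.01 (not called) in DNMT3ABKO cells. The call of Asf1b was lost without DNMT3ABKO at 0 h replicate 1 (log2 change 0.21) or either DNMT3ABKO library at 144 h (adjusted p up to 0.171).

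Genes of S phase were described in the same way. Of 25 genes of DNA replication, 5 were called higher and 4 lower in KH cells from 0 to 144 h (20% and 16%, where 27.4% and 23.9% of all tested genes were), with a median log2 change of 0.02. In DNMT3ABKO cells 3 were called higher and 13 lower (12% and 52%, where 31.4% and 26.2% were), with a median of -0.24. At 72 h there were 6 higher and 7 lower in KH cells (24% and 28%, where 28.3% and 19.5% of all tested genes were, median -0.01). In DNMT3ABKO cells there were 2 higher and 13 lower at that time (8% and 52%, where 34.3% and 21.6% were, median -0.25). Pcna, the replication clamp, stood at 290.4 and 327 TPM at 0 h and 324 and 319 TPM at 144 h in KH cells and at 293 and 346, then 312 and 324 TPM in DNMT3ABKO cells. Rrm2, a subunit of ribonucleotide reductase, stood at 237 and 253, then 159 and 166, then 142 and 146 TPM in KH cells, and at 241 and 288, then 114 and 113, then 87.8 and 89.7 TPM in DNMT3ABKO cells. It fell at 144 h by 0.76 in KH and by 1.56 in DNMT3ABKO cells (adjusted p = 3.99e-05 and 1.39e-07), a difference of -0.80 (adjusted p = 0.00178), over the same interval in which the H4 sum rose by 0.44 and 0.40.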

How the data were processed

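Total RNA libraries (ribosomal RNA removed with the KAPA RNA HyperPrep kit with RiboErase) had been processed by the authors with STAR and StringTie on mm10, and the deposited tables hold TPM per gene. The versions of STAR and StringTie differ between the methods and the submitters' notes, and how strand was treated in counting is not given in the sources used here. TPM is a relative share, so a count test was not used, depth cannot be read from the files and counting error is not included in any interval. Repeated identifiers within a table, 9 to 16 per library, were summed.

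All 15727 genes whose TPM averaged 1 or more across the 12 libraries were tested with limma 3.58.1 in R 4.3.3 on log2(TPM + 1), with an intensity trend, 6 groups and no covariate, and Benjamini-Hochberg adjustment over all tested genes at 0.05. All log2 values are of TPM + 1, so low genes appear to change less than they do. In a second fit, the sum of each histone type replaced its genes (15662 features), because copies share reads. The code was tested on simulated data. Figures were drawn with matplotlib 3.10.9.

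The members and gene lists were chosen with earlier results of these data known. The text names, per type, the 3 genes with the highest mean TPM, the germ-line members, members with a called difference in response, up to 3 highest and 3 lowest called members without overlap per contrast, and members at 0 TPM in 1 library of a group and above 5 TPM in the other, with 12 genes fixed from the lists. Hist3h2a, Hist2h3c1 and other low or discordant members were named after their values were seen. Nothing in the labels says that the 2 libraries of a group came from separate cultures, so p-values measure only the spread between these libraries, which may be technical. Alternatives were another pseudocount, no filter on low values, 2 scalings, only the groups compared, a replicate block, only genes with unique words, no pseudogenes, no discordant members and leaving out each library.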

Additional observations from a re-analysis of the deposited data

Results flagged for a closer look

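These results were singled out because the change from 0 h differed between KH and DNMT3ABKO cells by a test of the difference itself (limma, adjusted over all tested genes). At 72 h the response of DNMT3ABKO cells was lower for the H1 sum (-0.38 on the log2 scale), Hist1h1b (-0.39), Hist1h1c (-0.38), Hist1h2br (-2.01) and Rrm2 (-0.62). At 144 h it was lower for Hist1h2br (-2.09) and Rrm2 (-0.80) and higher for Hist1h2aa (0.62) and H3f3b (0.48). The calls of the H1 sum, Hist1h1b, Hist1h1c, Hist1h2br and Rrm2 at 72 h and of Hist1h2aa at 144 h were each lost when certain single libraries were left out. Both responses of a line share its libraries at 0 h.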

How the results depend on the processing

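Of the alternatives other than leaving out a library, 446 values of the type sums stayed on the same side of the threshold, 33 lost and 16 gained a call. Of the counts of called members, 66 stayed within 1.5 times while 11 did not. The 66 include the counts without the 4 discordant members, which came from the same fit and could not move further. With 1 library left out, the numbers were 590, 51 and 19 for the sums and 108 and 24 for the counts. No called sum changed its sign, while an uncalled sum that did so is counted as staying on its side. The values are log2 differences, and the cause of a change in call was not tested. For the alternative fits and those without a library, here and above, the share of all tested genes called is not given. A moved count of members therefore cannot be told from a move over all tested genes. Without the 4 discordant members, an alternative chosen after seeing the data, no call of a sum changed.

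With a pseudocount of 0.1 TPM, the call was lost for H3 between lines at 144 h (-0.27) and H1 difference in the 72 h response (-0.38). With no filter on low values, the call was lost for H2A KH 144 h against 0 h (0.37), H3 KH 144 h against 0 h (0.33), H3 DNMT3ABKO 144 h against 0 h (0.26), H2A DNMT3ABKO 144 h against 72 h (0.52), H2B between lines at 72 h (-0.45), H3 between lines at 72 h (-0.31), H1 between lines at 144 h (-0.24), H3 between lines at 144 h (-0.27) and H1 difference in the 72 h response (-0.38). Under that setting the number of called members was 16 for the contrast between lines at 72 h. With each library scaled by the median ratio, the call was lost for H1 DNMT3ABKO 144 h against 0 h (0.17), H3 DNMT3ABKO 144 h against 0 h (0.21), H3 between lines at 72 h (-0.28), H1 between lines at 144 h (-0.18), H3 between lines at 144 h (-0.22) and H1 difference in the 72 h response (-0.40). A call was gained for H4 KH 72 h against 0 h (-0.23), H2A KH 144 h against 72 h (0.35), H2B KH 144 h against 72 h (0.39), H3 DNMT3ABKO 72 h against 0 h (-0.33) and H4 DNMT3ABKO 72 h against 0 h (-0.30). Under that setting the number of called members was 2 for the contrast between lines at 0 h. Scaled to the other protein-coding genes, the call was lost for H1 DNMT3ABKO 144 h against 0 h (0.16), H3 DNMT3ABKO 144 h against 0 h (0.20), H1 between lines at 144 h (-0.25), H3 between lines at 144 h (-0.28) and H1 difference in the 72 h response (-0.44). A call was gained for H2B KH 72 h against 0 h (0.23), H2B KH 144 h against 72 h (0.34), H3 DNMT3ABKO 72 h against 0 h (-0.27), H4 DNMT3ABKO 72 h against 0 h (-0.24) and H2A between lines at 72 h (-0.35). Under that setting the number of called members was 2 for the contrast between lines at 0 h. With only the compared groups in the fit, the call was lost for H1 DNMT3ABKO 144 h against 0 h (0.22), H3 DNMT3ABKO 144 h against 0 h (0.26) and H1 difference in the 72 h response (-0.38). A call was gained for H2B KH 144 h against 72 h (0.34), H2A between lines at 72 h (-0.35), H2B between lines at 144 h (-0.21) and H4 between lines at 144 h (-0.21). Under that setting the number of called members was 0 for the contrast between lines at 0 h, 47 for the contrast between lines at 72 h, 36 for the contrast between lines at 144 h and 1 for the difference in the 72 h response. With the replicate number as a replicate block, the call was lost for H2A KH 144 h against 0 h (0.37). It was also lost for H3 DNMT3ABKO 144 h against 0 h (0.26) and H1 difference in the 72 h response (-0.38). The number of called members was 1 for the difference in the 72 h response. That fit gave each line its own replicate term and took each group at its fitted level in replicate 1. Its contrasts between lines are thus differences at replicate 1, not those of the main fit, though they are included in the totals above. Among them no call was given for H3 at 72 h (-0.34), H1 at 144 h (-0.22) and H3 at 144 h (-0.30). The numbers of called members in them were 0 at 0 h, 17 at 72 h and 10 at 144 h. Without the pseudogenes, the call was lost for H2A KH 144 h against 0 h (0.37). With only genes at least 50% of whose words were unique, the call was lost for H2B between lines at 72 h (-0.33). A call was gained for H2A KH 144 h against 72 h (0.40) and H2A between lines at 72 h (-0.41).

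Leaving out 1 library at a time ended or gave a call in the following sums, each with its lowest and highest log2 value. Among changes within KH these were H2A KH 144 h against 0 h (0.24 to 0.51), H3 KH 144 h against 0 h (0.30 to 0.36), H3 KH 144 h against 72 h (0.31 to 0.53), H1 KH 72 h against 0 h (-0.15 to -0.11), H2B KH 72 h against 0 h (0.15 to 0.31) and H2B KH 144 h against 72 h (0.32 to 0.35). Among changes within DNMT3ABKO these were H2B DNMT3ABKO 72 h against 0 h (-0.25 to 0.13), H2A DNMT3ABKO 144 h against 72 h (0.47 to 0.57), H1 DNMT3ABKO 144 h against 0 h (0.14 to 0.29) and H3 DNMT3ABKO 144 h against 0 h (0.19 to 0.32). Among differences between lines these were H3 between lines at 144 h (-0.33 to -0.20), H2B between lines at 72 h (-0.48 to -0.41), H3 between lines at 72 h (-0.42 to -0.20), H1 between lines at 144 h (-0.24 to -0.23), H2A between lines at 72 h (-0.45 to -0.24), H4 between lines at 72 h (-0.28 to -0.13), H2B between lines at 144 h (-0.23 to -0.19), H4 between lines at 144 h (-0.25 to -0.16), H2A between lines at 0 h (-0.56 to -0.17) and H2B between lines at 0 h (-0.34 to 0.035). Among differences in response these were H1 difference in the 72 h response (-0.45 to -0.30), H2B difference in the 72 h response (-0.48 to -0.10) and H1 difference in the 144 h response (-0.29 to -0.14). The number of called members moved by over 1.5 times for KH 144 h against 0 h (29 to 57), difference in the 144 h response (1 to 16), between lines at 0 h (1 to 39), between lines at 72 h (8 to 40), difference in the 72 h response (0 to 8), KH 72 h against 0 h (11 to 24), between lines at 144 h (4 to 27) and DNMT3ABKO 144 h against 72 h (34 to 64).

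The replicate numbers share only a number: the correlation of deviations between same-numbered libraries was -0.10 to 0.10, and the replicate block changed no other call of a sum. Median-ratio scaling shifted the median of all genes by up to -0.11 (DNMT3ABKO 72 h against 0 h), and changes are relative to it.

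With 2 libraries per group, each spread rests on few values. Depth is unknown, so levels near 1 TPM have no counting error here. Copies with identical coding sequence, overlapping models and an unstated strand setting limit single genes and, as model lengths are unequal, type sums too. When a group keeps 1 library, that library is assumed to vary like the other groups.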
